A study of Mus musculus with 15 samples.

Results

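The genes described here build the machinery that copies DNA and supply its building blocks. The list held 51 mouse genes, given by name: proteins that recognise and license replication origins, that switch on the helicase, that work at the fork, that polymerise DNA, and that make or guard deoxynucleotides. A member was measured by the probe sets of the array that the annotation ties to its symbol alone, and the brightest of these stood for the gene. Of the 51 genes, 50 had such a probe set and all 50 passed the filter on dim probe sets, out of 18193 symbols on the array and 13382 genes tested. Chaf1a, which encodes the large subunit of a chromatin assembly factor, was not analysed here.

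RNA was measured on Affymetrix GeneChip arrays for mouse genes in primary male mouse embryonic fibroblasts (MEF) as deposited intensities, in 5 groups of 3 arrays. Hdac1 and Hdac2 encode closely related histone deacetylases, enzymes that remove acetyl groups from histones. Cells of 4 groups were Hdac1 fl/fl, that is, their Hdac1 can be cut out by Cre, and carried a retrovirus for Cre-ERT2, a Cre switched on by tamoxifen, and another for a micro-RNA. Control cells had the scrambled micro-RNA and ethanol. The Hdac1 knockout (KO) cells had the scrambled micro-RNA and tamoxifen at 200 nM, the Hdac2 knockdown (Kd) cells had a micro-RNA against Hdac2 and ethanol, and cells with both had the micro-RNA against Hdac2 and tamoxifen. The fifth group was Hdac1 +/+ cells with 200 nM tamoxifen, here called +/+ cells, and their viruses are not given in the labels. No group of fl/fl cells received tamoxifen without losing Hdac1, so in fl/fl cells the drug and the deletion cannot be told apart. The labels do not say whether arrays of a group stem from separate cultures. The p-values therefore measure only how far these samples spread, and that spread may be technical.

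Replication begins at origins bound by the origin recognition complex, the proteins of the Orc genes. In G1 phase Cdc6 and Cdt1 load the ring of Mcm2 to Mcm7, the core of the helicase, and geminin (Gmnn) blocks Cdt1 afterwards. At the start of S phase the kinase Cdc7 with Dbf4, and the loading of Cdc45, GINS and Mcm10, turn the ring into a running helicase, behind which polymerases alpha, delta and epsilon copy the strands. Many of these genes are transcribed at the entry into S phase under E2F factors, and growth-arrested fibroblasts carry little of their RNA. In bulk RNA, fewer cells in S phase and less RNA per cell cannot be told apart.

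Because E2F factors are the textbook regulators of this group, the promoters of the members were read from RefSeq's mouse table (GRCm38.p6), which gives 250 bases before and 50 after a start site, 300 in all. The table held 43 of the 51 genes by symbol, some with several start sites. It was searched on both strands for the E2F words TTTCCCGC, TTTGGCGC, TTTCGCGC and TTTGCCGC, which can overlap each other, and for the CCAAT box, the word CCAAT, which was counted apart and can share end bases with them. The stretches below are the 160 bases just before a start site, 5′ to 3′ on the gene's own strand, with E2F words of either strand in capitals. The first 5 are members with such a word in this stretch. Orc3, Gins3 and Rfc3 also hold one there and are not printed. The last 3 are members without one that differ widely in how they responded.
Mcm5: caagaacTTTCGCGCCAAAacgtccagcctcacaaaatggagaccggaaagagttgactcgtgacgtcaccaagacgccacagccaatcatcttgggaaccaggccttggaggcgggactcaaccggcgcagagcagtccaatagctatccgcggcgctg
Mcm6: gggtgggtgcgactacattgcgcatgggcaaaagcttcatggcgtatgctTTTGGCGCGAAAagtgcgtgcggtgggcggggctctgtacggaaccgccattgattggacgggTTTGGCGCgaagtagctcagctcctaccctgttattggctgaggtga
Cdc6: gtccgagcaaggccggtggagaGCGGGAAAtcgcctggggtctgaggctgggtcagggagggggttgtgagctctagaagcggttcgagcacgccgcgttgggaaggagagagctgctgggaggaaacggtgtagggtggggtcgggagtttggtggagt
Orc1: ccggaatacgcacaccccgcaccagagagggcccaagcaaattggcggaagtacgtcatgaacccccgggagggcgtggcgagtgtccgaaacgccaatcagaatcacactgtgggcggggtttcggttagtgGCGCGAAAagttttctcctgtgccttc
Pola1: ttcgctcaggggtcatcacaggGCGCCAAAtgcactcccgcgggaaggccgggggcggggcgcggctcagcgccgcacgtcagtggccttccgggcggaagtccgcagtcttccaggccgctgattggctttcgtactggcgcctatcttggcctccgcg
Tk1: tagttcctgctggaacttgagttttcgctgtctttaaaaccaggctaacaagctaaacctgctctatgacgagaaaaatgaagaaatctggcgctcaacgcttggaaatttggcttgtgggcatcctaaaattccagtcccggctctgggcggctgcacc
Cdc45: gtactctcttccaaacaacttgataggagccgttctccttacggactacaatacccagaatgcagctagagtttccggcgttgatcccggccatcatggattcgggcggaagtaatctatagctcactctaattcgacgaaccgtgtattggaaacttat
Orc5: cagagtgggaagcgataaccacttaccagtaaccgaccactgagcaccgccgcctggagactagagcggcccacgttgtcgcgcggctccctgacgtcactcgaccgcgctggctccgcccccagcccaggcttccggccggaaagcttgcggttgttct
The stretches lie at chr8:75109349-75109508 (plus strand, Mcm5), chr1:128359706-128359865 (minus strand, Mcm6), chr11:98907991-98908150 (plus strand, Cdc6), chr4:108579294-108579453 (plus strand, Orc1), chrX:93632156-93632315 (minus strand, Pola1), chr11:117826015-117826174 (minus strand, Tk1), chr16:18811973-18812132 (minus strand, Cdc45) and chr5:22550339-22550498 (minus strand, Orc5) in GRCm38.p6.
In Mcm5 the capitals are 2 overlapping words on opposite strands, 153 to 142 bases before the start, and in Mcm6 the first run is such a pair and the other a further word. An E2F word was present in the windows of 15 of 43 members (34.9%), against 4.57% of the 10734 tested genes with a promoter entry and 2.61% of all 27025 genes in the table. At least 2 words were found in 5 members (11.6%), against 0.224% of tested genes. The CCAAT box was in 24 of 43 members (55.8%) and in 42.7% of tested genes, so its share differed far less. By role, an E2F word was found in 8 of 13 licensing genes, 1 of 5 helicase activation genes, 2 of 12 fork genes, 4 of 7 polymerase genes and 0 of 6 nucleotide genes. These are matches of letters in a window, with no measure of binding.

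The targeted genes followed the labels. Where Hdac1 was intact its mean intensity was 3557 ± 101 (control), 3855 ± 105 (Kd) and 4472 ± 311 (+/+), and after deletion it was 161 ± 19.8 (KO) and 156 ± 48.6 (both; SD, n = 3 arrays). Hdac2 was at 7051 ± 449 in control and 958 ± 62.1 and 1025 ± 9.88 in Kd cells and cells with both. The labels do not tell if the Hdac1 probe set covers the deleted exons. The arrays had median intensities between 24.1 and 30.7. Fibroblast markers such as Col1a1, Vim and Pdgfrb were all 9 above the filter, with summed intensities of 182046 to 188857 in control and 193834 to 205441 with both. With both, 2 of these 9 were lower and 5 higher, with S100a4 at -4.44 and Col3a1 at 0.94. Thy1 was at 1.14 in KO, -1.06 in Kd and 2.08 in +/+ cells and at 0.21 with both (adjusted p = 0.118). The summed neural markers were at 1566 to 1687 in control and 3244 to 3382 with both (4 of 5 higher), with 1289 to 1856 in KO and 2614 to 2809 in Kd cells. Cartilage sums were at 9734 to 10297 in control and 11589 to 14363 with both (2 of 4 higher, 1 lower), with 10413 to 12898 in KO and 6731 to 7021 in Kd cells. Summed muscle markers were at 1889 to 2305 in control, 2887 to 3507 in KO cells, 1495 to 1584 in Kd cells and 271 to 413 with both, where Acta1 was lower by 2.92 on the log2 scale and 2 of the 4 tested markers were higher. Macrophage and epithelial sums were at 377 to 403 and 117 to 132 in control and 370 to 545 and 110 to 117 with both. Endothelial sums were at 67.8 to 72.2 and 121 to 161, with 1 of 5 markers, Kdr, above the filter. The part of these markers in the results below was not tested.

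In cells that had lost Hdac1 and most of Hdac2, nearly the whole replication set was lower. Of 50 members 47 fell and 0 rose against control (limma, adjusted p under 0.05 over all genes), 40 of them by 2-fold or more, with a median log2 difference of -1.35 against 0.16 over all genes tested. Among all genes 19.3% were lower and 46.2% higher in this comparison, and 4.11% were lower by 2-fold or more. For 42 of 50 members all 3 arrays of these cells lay below each of the 12 other arrays, which was so for 14.1% of all genes. With either loss alone the set was far closer to control: KO cells had 34 members lower and 0 higher (median -0.38, all genes 0.08, of which 4.64% were lower and 19.5% higher), and Kd cells 0 lower and 0 higher (median -0.07, all genes 0.04, 3.02% lower and 7.5% higher). At an unadjusted p under 0.05 in limma, 4 members were lower and 0 higher in Kd cells (Orc2, Rpa2, Fen1 and Ung). The share of all genes at that unadjusted threshold was not counted. At the adjusted threshold 4 were lower after quantile normalization and 8 with centred arrays, against 973 and 1087 of all 13382 genes. The share of members after quantile normalization was near that of all genes. The +/+ cells with tamoxifen had 13 members lower and 0 higher than control (median -0.20, all genes 0.08, 6.93% lower and 21.5% higher).

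**Figure D1:**
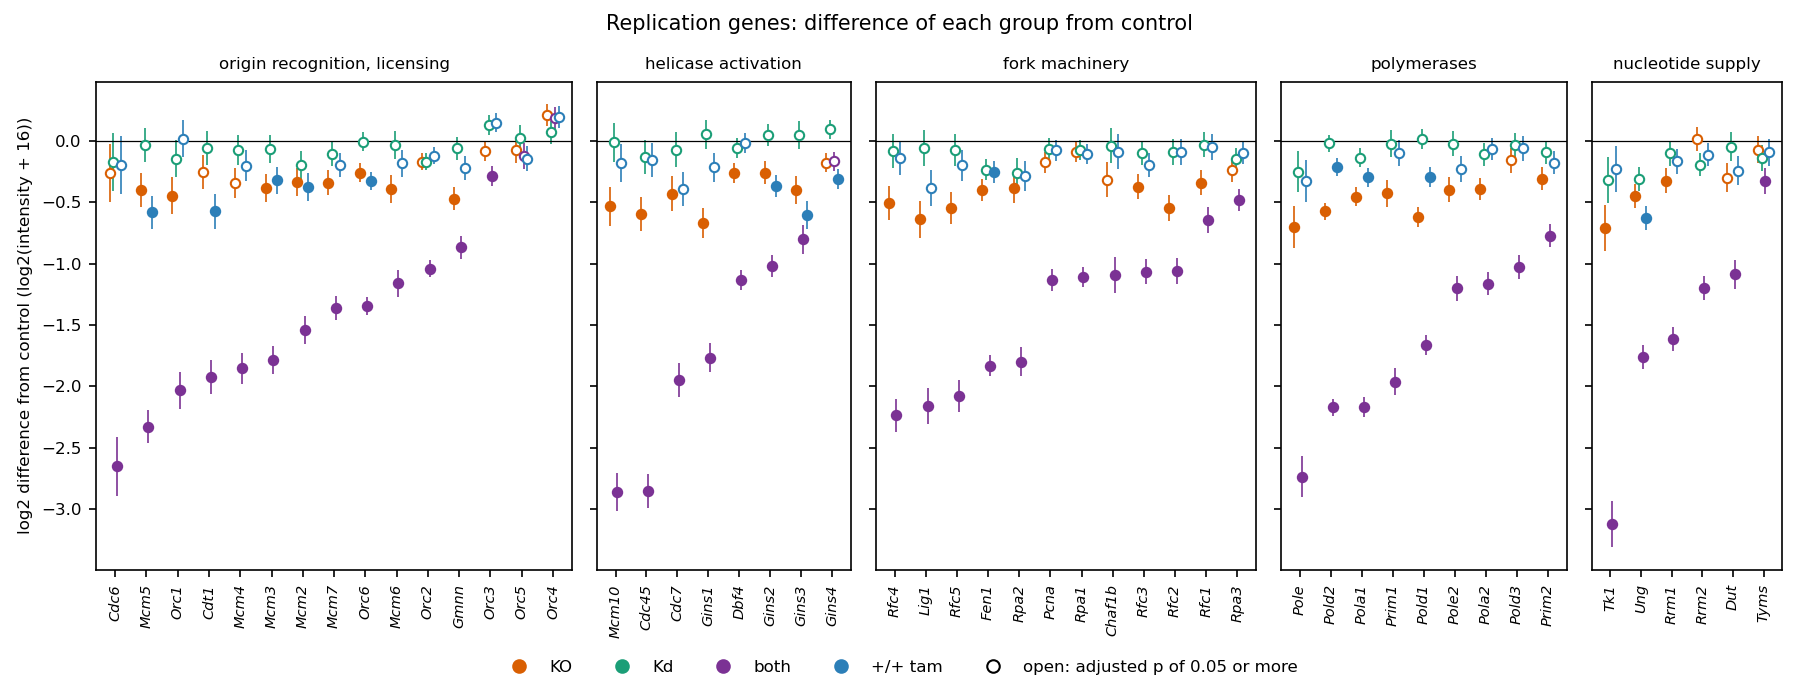
Log2 difference from control on the log2(intensity + 16) scale (vertical axis) of each of 50 replication genes, in panels by role and ordered within a panel by the value with both. Points are limma estimates with bars of 1 standard error for KO, Kd, both and +/+ cells with tamoxifen, filled where the adjusted p was under 0.05; the points of cells with both lie far below the others for nearly all genes, with Orc3, Orc5, Orc4 and Gins4 near the line at 0.

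Origin recognition and licensing genes fell in cells with both for 13 of 15 members (median -1.36), with Cdc6, Mcm5 and Orc1 at the largest differences. Orc1, the large subunit of the origin recognition complex, is a subunit whose RNA follows the cell cycle. Its intensity was 164, 203 and 139.9 on the 3 control arrays, 92.5, 109 and 162 in KO, 159, 151 and 138 in Kd, 22.9, 34.2 and 29.7 with both and 169, 166 and 172 in +/+ cells. The 3 arrays with both lay far below the 12 others, whereas KO arrays reached from below the controls into their range. The log2 difference was -2.03 with both (adjusted p = 5.04e-09) and -0.45 in KO cells (adjusted p = 0.0415).

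Mcm2, a subunit of the helicase ring, was at 2657, 2719 and 2519 in control and at 1790, 2106 and 2411 in KO cells. Kd cells gave 2364, 2270 and 2259, cells with both 776, 1093 and 838 and +/+ cells 2118, 1986 and 1970. All arrays of the other groups lay below the control arrays, the +/+ cells about as far as the KO cells, and cells with both were separate from all of them. Mcm2 changed by -0.33 in KO cells (adjusted p = 0.0428), -0.38 in +/+ cells (adjusted p = 0.0202) and -1.54 with both (adjusted p = 4.15e-09), and was at -0.19 in Kd cells (adjusted p = 0.337). The other ring genes fell with both by 1.79 (Mcm3), 1.85 (Mcm4), 2.33 (Mcm5), 1.16 (Mcm6) and 1.36 (Mcm7) on the log2 scale. Mcm5 went from 14938 ± 183 to 3039 ± 876 (mean intensity ± SD, n = 3), 20.3% of control.

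Cdc6, which loads the ring, showed the largest change among licensing genes. Its arrays read 1724, 1913 and 1923 in control, 1829, 1675 and 1445 in Kd and 1616, 1539 and 1703 in +/+ cells, then 1407, 1540 and 1685 in KO cells and 269, 496 and 164 with both. The arrays with both were low but spread 3-fold among themselves, and those of KO and +/+ cells lay just below the controls. The log2 difference was -2.65 with both (SE 0.24, adjusted p = 4.85e-08) and -0.26 in KO cells (adjusted p = 0.468). Cdt1, the partner of Cdc6, fell by 1.92 with both and by 0.57 in +/+ cells (adjusted p = 0.00597), and was at -0.25 in KO cells (adjusted p = 0.213).

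Gmnn, the inhibitor of Cdt1, was the licensing gene with the largest difference in KO cells. Its intensity was 2688, 2640 and 2667 in control, 2653, 2492 and 2535 in Kd and 2229, 2369 and 2265 in +/+ cells, then 1771, 1863 and 2147 in KO cells and 1352, 1742 and 1310 with both. All KO arrays were below all control, Kd and +/+ arrays, and the arrays with both were below all KO arrays. Gmnn fell by 0.47 in KO cells (adjusted p = 0.00197) and by 0.86 with both (adjusted p = 5.71e-07).

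The further subunits of the origin recognition complex moved unevenly. Orc6 and Orc2 fell with both by 1.34 and 1.04, and Orc3 by 0.28 (adjusted p = 0.00541). Orc5 was at -0.12 (adjusted p = 0.318) and Orc4 at 0.19 (adjusted p = 0.0793; -0.02 after quantile normalization and -0.08 with centred arrays). The mean intensity of Orc4 was 1960 ± 45.8 in control and 2239 ± 138 with both. As deposited, further probe sets of Orc4 with means of 677 and 714 in control were higher with both by 0.29 and 0.33, and a dim one was at -0.13. Orc3 lost its call with both when a gene's probe sets were averaged.

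Helicase activation genes fell with both for 7 of 8 members (median -1.45) and in KO cells for 7 of 8 (median -0.41). Cdc45, which travels with the ring in the active helicase, was at 424, 604 and 489 in control and 299, 312 and 371 in KO cells. Kd cells read 486, 478 and 409.5, cells with both 56.2, 71.3 and 41.9 and +/+ cells 432, 480.1 and 437. The 3 KO arrays lay below all arrays of control, Kd and +/+ cells, and those with both lay far below the KO arrays, at 11.2% of the control mean. Cdc45 fell by 0.59 in KO cells (adjusted p = 0.00564) and by 2.85 with both (adjusted p = 3.51e-11).

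Gins1, a subunit of the GINS complex of the helicase, read 1412, 1468 and 1496 in control, 1498, 1513 and 1537 in Kd and 1273, 1297 and 1199 in +/+ cells, then 848, 874 and 1025 in KO cells and 404, 538 and 333 with both. Groups did not overlap between KO, both and the rest, and Kd arrays lay just above the controls. The log2 difference was -0.67 in KO cells (adjusted p = 0.000816), 0.06 in Kd cells (adjusted p = 0.854, -0.01 with centred arrays) and -1.77 with both (adjusted p = 1.76e-09). The other GINS genes differed from it in size. Gins2 and Gins3 fell with both by 1.02 and 0.80, and Gins4 was at -0.16 (adjusted p = 0.0766). Gins3 and Gins4 were lower in +/+ cells by 0.60 and 0.31 (adjusted p = 0.00101 and 0.00775). With both, quantile normalization put Gins4 at -0.38 and Orc5 at -0.33 and centring at -0.43 and -0.39, all past the threshold.

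Mcm10, which joins the helicase at its activation, fell with both to 74.3 ± 28.3 from 619 ± 25.5 (log2 difference -2.86, adjusted p = 1.33e-10), next to Tk1 the largest difference of the set. The kinase genes Cdc7 and Dbf4 fell with both by 1.95 and 1.13 and in KO cells by 0.43 and 0.26. In Kd cells the 8 activation genes lay between -0.13 and 0.09, and 0 of them passed.

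**Figure D2:**
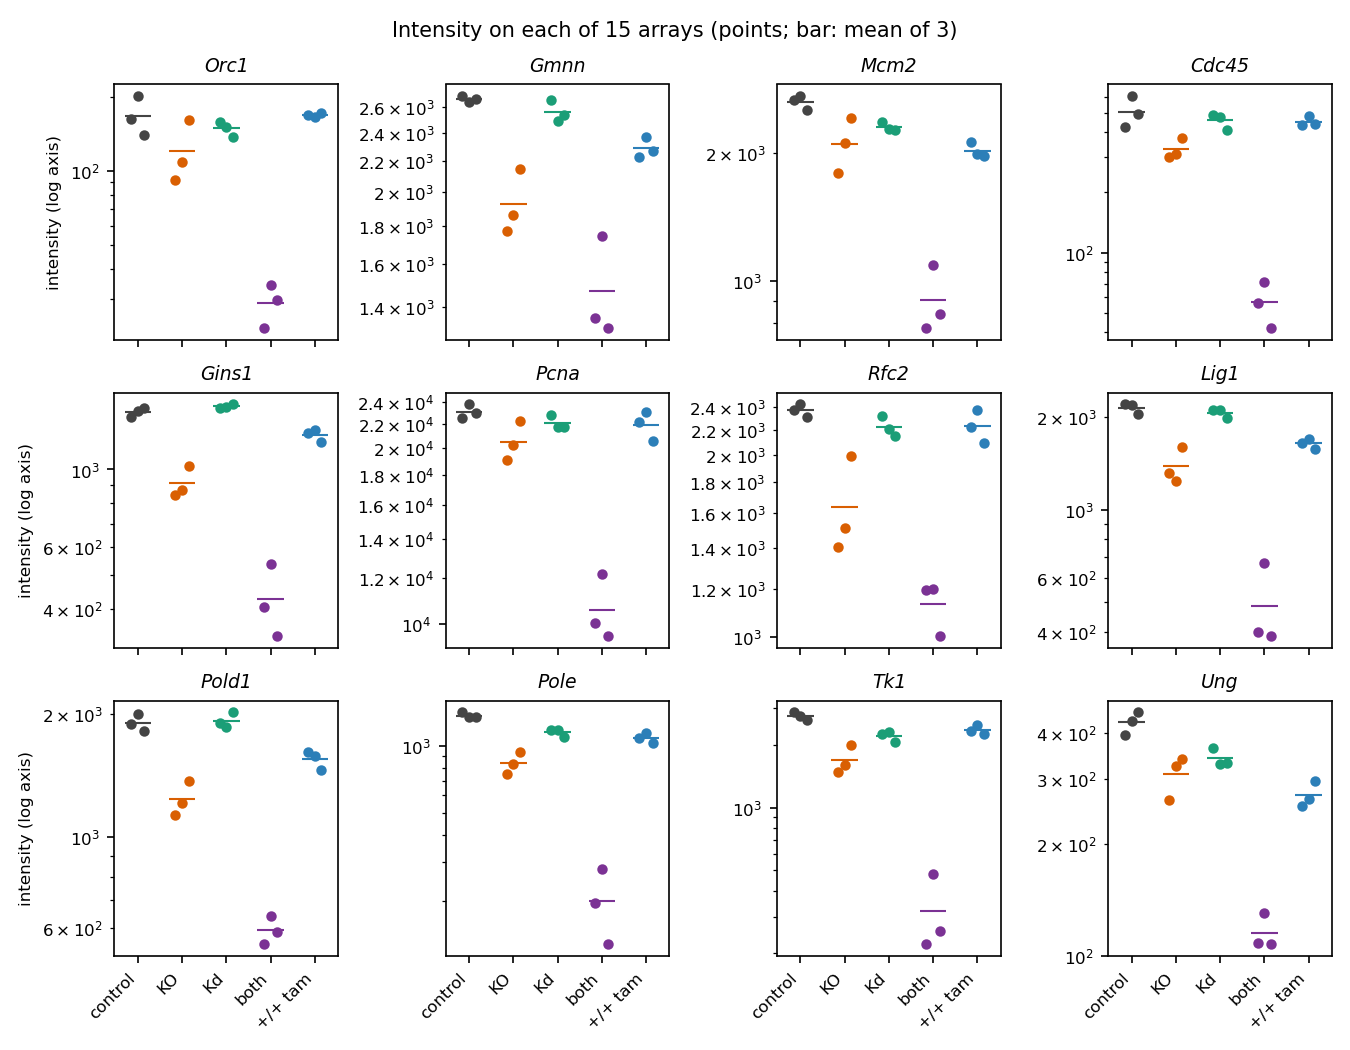
Intensity on a logarithmic axis, whose range differs between panels, of 12 replication genes on each of the 15 arrays, with 3 points per group (replicates 1 to 3 from left to right) and a bar at their mean. The 3 points of cells with both are the lowest of their panel for each of these genes, with KO points between these and the controls for most.

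Fork genes fell with both for 12 of 12 members (median -1.12) and in KO cells for 8 of 12. Pcna, the sliding clamp that holds polymerases on DNA, is a common mark of proliferating cells. It read 22517, 23800 and 22965 in control, 22800, 21757 and 21728 in Kd and 22156, 23070 and 20612 in +/+ cells, then 19063, 20286 and 22244 in KO cells and 10035, 12200 and 9528 with both. Its 3 arrays with both stood well below 12 arrays that lay close to each other. Pcna fell by 1.13 with both (adjusted p = 7.79e-09) and was at -0.17 in KO cells (adjusted p = 0.17), which became -0.27 (adjusted p = 0.00755) after quantile normalization and -0.30 (adjusted p = 0.0021) with centred arrays. In +/+ cells Pcna passed with centred arrays (-0.17, adjusted p = 0.0399) but not as deposited.

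The clamp is loaded by replication factor C, whose 5 subunit genes all fell in KO cells. Rfc2 read 2375, 2425 and 2307 in control, 2318, 2206 and 2152 in Kd and 2223, 2370 and 2094 in +/+ cells, then 1409, 1511 and 1991 in KO cells and 1193, 1201 and 1001 with both. KO arrays lay below all arrays of the 3 other groups apart from cells with both, which were lower again. Rfc2 fell by 0.54 in KO cells (adjusted p = 0.00152) and by 1.06 with both (adjusted p = 1.98e-07). With both, Rfc4 fell by 2.24, Rfc5 by 2.08, Rfc3 by 1.06 and the large subunit gene Rfc1 by 0.64.

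Lig1, the ligase that seals Okazaki fragments, had the largest difference of the fork genes in KO cells. Its arrays read 2209, 2193 and 2057 in control, 2108, 2108 and 1992 in Kd and 1655, 1696 and 1583 in +/+ cells, then 1313, 1243 and 1597 in KO cells and 399.6, 667 and 386 with both. KO and +/+ arrays were all below the controls and touched each other's range, while the arrays with both were separate. Lig1 fell by 0.64 in KO cells (adjusted p = 0.00518) and by 2.16 with both (adjusted p = 1.93e-09), and was at -0.38 in +/+ cells (adjusted p = 0.0641). Fen1, the nuclease that trims the fragments, fell by 1.83 with both. The subunits of replication protein A, which coats unpaired DNA, fell with both by 1.80 (Rpa2), 1.11 (Rpa1) and 0.48 (Rpa3), and Chaf1b, a subunit of the chromatin assembly factor behind the fork, by 1.09.

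Polymerase genes fell with both for 9 of 9 members, with the most negative median of the 5 roles (-1.66), and in KO cells for 8 of 9 (median -0.43). Pole, the catalytic subunit of polymerase epsilon, read 1422, 1350 and 1349 in control, 1180, 1182 and 1100 in Kd and 1088, 1152 and 1038 in +/+ cells, then 752, 832 and 941 in KO cells and 198, 279 and 128 with both. KO arrays lay below, and arrays with both far below, those of the other groups, and Kd and +/+ arrays lay between KO and control. Pole fell by 0.70 in KO cells (adjusted p = 0.00659) and by 2.74 with both (adjusted p = 5.49e-10). In Kd cells it was at -0.25 (adjusted p = 0.43).

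Pold1, the catalytic subunit of polymerase delta, gave 1894, 2003 and 1815 in control, 1897, 1855 and 2018 in Kd and 1617, 1576 and 1461 in +/+ cells, then 1131, 1211 and 1371 in KO cells and 546, 640.2 and 586 with both. The order control and Kd, then +/+, then KO, then both held without overlap between these steps. Pold1 fell by 0.62 in KO cells (adjusted p = 5.56e-05), by 0.29 in +/+ cells (adjusted p = 0.0132) and by 1.66 with both (adjusted p = 3.42e-11). Its partner Pold2 had the smallest adjusted p of the members with both (2.51e-13), with 1641 ± 57.5 in control and 353 ± 24.3 with both (log2 difference -2.17). Pola1 and Pola2 of polymerase alpha fell with both by 2.17 and 1.16, the primase genes Prim1 and Prim2 by 1.96 and 0.77, and the accessory genes Pole2 and Pold3 by 1.20 and 1.03.

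Genes of nucleotide supply fell with both for 6 of 6 members (median -1.41) and in KO cells for 3 of 6. Tk1, the cytosolic thymidine kinase that salvages thymidine in S phase, had the largest difference of all members. It read 2866, 2765 and 2645 in control, 2258, 2307 and 2070 in Kd and 2340, 2492 and 2245 in +/+ cells, then 1485, 1608 and 1995 in KO cells and 221, 481 and 257 with both. Control arrays were the highest, Kd and +/+ arrays overlapped below them, KO arrays were lower still and the arrays with both lay at 11.6% of the control mean. Tk1 fell by 0.71 in KO cells (adjusted p = 0.0122) and by 3.13 with both (adjusted p = 4.04e-10), and was at -0.32 in Kd cells (adjusted p = 0.349). Among the printed stretches that of Tk1 holds no E2F word.

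Ung, which encodes the glycosylase that removes uracil from DNA, read 395, 432 and 455 in control, 364, 331 and 332 in Kd and 253, 265 and 296 in +/+ cells, then 264, 326 and 340.2 in KO cells and 108, 130.3 and 107 with both. Here the +/+ cells overlapped the KO cells and reached below them, and Kd arrays also lay below the controls. Ung fell by 0.45 in KO cells (adjusted p = 0.00338), by 0.63 in +/+ cells (adjusted p = 0.000189) and by 1.76 with both (adjusted p = 1.63e-10), and was at -0.31 in Kd cells (adjusted p = 0.0582). By their brightest probe sets the subunits of ribonucleotide reductase, which makes deoxynucleotides, parted in KO cells. Rrm1 fell by 0.32 (adjusted p = 0.0297). Rrm2 was at 0.02 (adjusted p = 0.93, -0.09 after quantile normalization and -0.11 with centred arrays). This difference between genes was not tested. Further bright probe sets were closer, with Rrm1 at -0.29 (limma over probe sets, adjusted p = 0.0714). For Rrm2 they were at -0.25 and -0.04 (adjusted p = 0.186 and 0.756). With both, Rrm1 fell by 1.61, Rrm2 by 1.20 and Dut, the enzyme that keeps uracil out of DNA, by 1.09. Tyms, thymidylate synthase, was measured by dim probe sets only, with 39.1 ± 3.23 in control and 28.1 ± 3.4 with both (log2 difference -0.32, adjusted p = 0.0147). Its call ended without replicate 1 of the cells with both.

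The 34 calls in KO cells against control depended on single arrays and on scaling. Without control replicate 1 or 2 they numbered 20, without KO replicate 1 or 2 they numbered 19 and 18, and arrayWeights, which lets noisier arrays count less and here stopped before reaching its convergence tolerance, left 11. They numbered 43 after quantile normalization and 46 with each array centred on its median. Of all 13382 genes 621 were lower as deposited. Without control replicate 1 or 2 there were 406 and 415, and without KO replicate 1 or 2 there were 393 and 399. With arrayWeights there were 203, after quantile normalization 1927 and with centred arrays 2182. The calls of 10 members held in all 16 alternatives: Gins1, Gmnn, Lig1, Pola1, Pola2, Pold1, Pold2, Rfc2, Rfc5 and Ung. KO replicate 3 gave the highest of the 3 KO values for 50 of 50 members and for 73.7% of all genes tested. With centred arrays this was so for 26 of 50 members and 19.5% of all genes, and the mean log2 distance of the 50 members from control on the 3 KO arrays went from -0.49, -0.40 and -0.18 as deposited to -0.48, -0.51 and -0.44. After quantile normalization it was so for 36 of 50 members and 33.9% of all genes, with mean distances of -0.47, -0.50 and -0.39.

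Set against the +/+ cells, which shared the tamoxifen, KO cells had 10 members lower and 0 higher (median -0.14). Besides the Hdac1 genotype, these groups may differ in viruses, which the labels do not give for +/+ cells. Of all genes 11.3% were lower and 12.8% higher (median -0.01). By this fit the share of members was above that of all genes but far smaller than against control. The 10 members were Orc1, Orc3, Cdc45, Gins1, Dbf4, Rfc2, Pola2, Prim1, Pold1 and Pold2, with Orc1 at -0.47 and Gins1 at -0.45 (limma, adjusted p = 0.0341 and 0.0113). The calls of Rfc2 (-0.46) and Pold2 (-0.36) held in all 16 alternatives, and Orc3 changed sign when its probe sets were averaged. The count was 5 without KO replicate 2 or +/+ replicate 1, 4 without KO replicate 1 or +/+ replicate 2, and 18 without KO replicate 3 or with centred arrays. Of all 13382 genes, 1159 and 1082 were lower in the settings with 5, and 975 and 1080 in those with 4. In the settings with 18 there were 2291 and 2503. With 4 or 5 members lower, their share was near that of all genes. Tk1 was at -0.48 (adjusted p = 0.0764), Pole at -0.38 (adjusted p = 0.126) and Lig1 at -0.25 (adjusted p = 0.249).

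The 13 members lower in +/+ cells than in control were Mcm2, Mcm3, Mcm5, Cdt1, Orc6, Gins2, Gins3, Gins4, Fen1, Pola1, Pold1, Pold2 and Ung. Without control replicate 2 or +/+ replicate 3 there were 8, and scaling gave 31 (quantile normalization) and 34 (centred arrays). Of all 13382 genes 741 and 724 were lower without those arrays and 2010 and 1921 after these scalings, against 927 as deposited. Mcm5 was at -0.58 in +/+ and -0.40 in KO cells and Cdt1 at -0.57 and -0.25. In +/+ cells the neural sums were 2142 to 2454 (2 of 5 higher, 2 lower, with Sox2 at 3.43 and Nes at -1.03), the muscle sums 1226 to 1269 (Acta1 at -0.80) and the cartilage sums 8040 to 8914 (3 of 4 higher, 1 lower, with Acan at 1.81), and of the 9 fibroblast markers 3 were higher and 1 lower. The part of these markers in the +/+ values was not tested. The +/+ cells differ from control in genotype and drug at the same time, so neither can be told apart from the other. Their viruses are not given, so a difference in Cre or micro-RNA virus cannot be told apart from these either.

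Cells with both were also compared with each of the other groups. Against +/+ cells 45 members fell and 0 rose (median -1.12, all genes 0.09, 23.5% lower and 38.2% higher). Against Kd cells 47 fell and 0 rose (median -1.29, all genes 0.13, 20.4% lower and 42.9% higher), and against KO cells 46 fell and 0 rose (median -1.07, all genes 0.08, 20.6% lower and 36.1% higher). The loss of Hdac1 in Kd cells and the knockdown of Hdac2 in KO cells each went with lower levels of most members. Tamoxifen came with the loss of Hdac1 in Kd cells, so drug and deletion cannot be told apart there. KO cells set directly against Kd cells had 20 members lower and 0 higher (median -0.28, all genes 0.04, 8.97% lower and 16.1% higher), with tamoxifen on the KO side alone. That count was 9 without KO replicate 1 or Kd replicate 1, 11 without KO replicate 2, 12 without Kd replicate 2 and 35 after quantile normalization. For all 13382 genes it was 792, 794, 859, 876 and 2276 in the same order, against 1200 as deposited.

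The interaction term tested whether the deletion, which came with tamoxifen, changed a gene more in Kd cells than in control cells. It was below 0 for 50 of 50 members and past the threshold for 43, with 0 above (median -1.01, all genes 0.06, 17.1% lower and 25.7% higher), and at -1 or less for 26. By role 12 of 15 licensing genes, 7 of 8 activation genes, 10 of 12 fork genes, 9 of 9 polymerase genes and 5 of 6 nucleotide genes passed. The single effects summed to a median of -0.43, and cells with both were at -1.35. The most negative terms were those of Mcm10 (-2.32, SE 0.22, adjusted p = 5.06e-07), Cdc6 (-2.22), Cdc45 (-2.13) and Tk1 (-2.10). Orc4 (-0.10), Orc5 (-0.07), Gmnn (-0.34), Gins4 (-0.08), Rfc1 (-0.28), Rpa3 (-0.10) and Tyms (-0.12) did not pass.

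Among these 7 genes Gmnn had the adjusted p nearest the threshold (0.0537). Across the 50 members the deletion effect in control cells (KO minus control) and in Kd cells (both minus Kd), which share no arrays, had a Pearson r of 0.734 and a Spearman rho of 0.692. Over all genes r was 0.528. Members are not independent of each other, and the 15 arrays are common to all of them, so this is a description. For 50 of 50 members the effect was more negative in Kd cells, against 42.3% of all genes. This is the same fact as an interaction term below 0, and no further result.

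**Figure D3:**
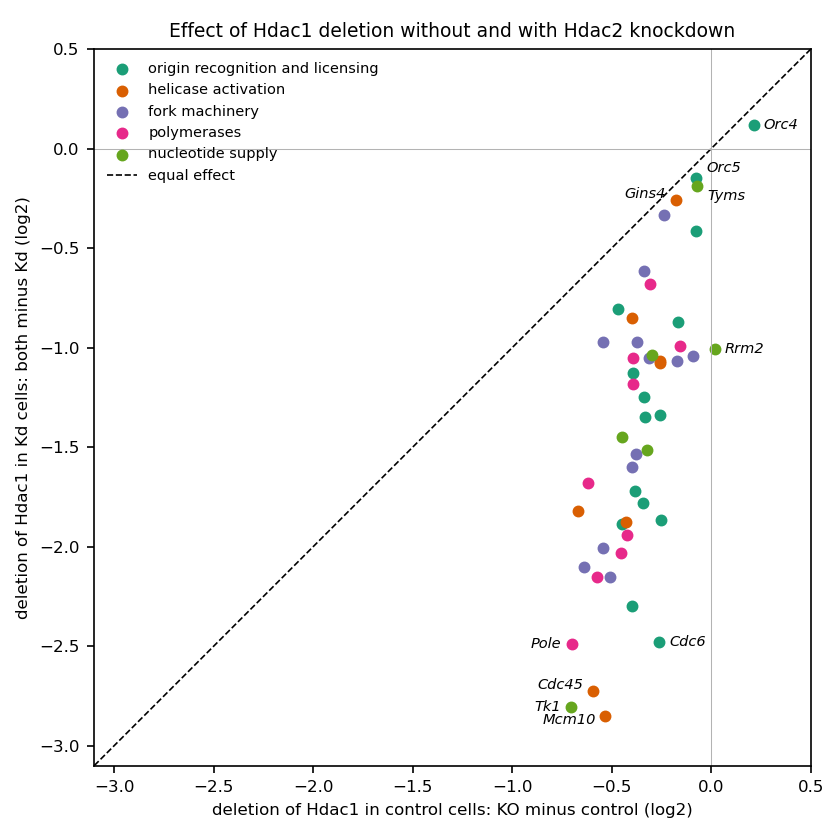
Log2 effect of Hdac1 deletion in control cells (KO minus control, horizontal axis) and in Kd cells (both minus Kd, vertical axis) for 50 replication genes, coloured by role, with a dashed line where both effects are equal. All 50 points lie below the dashed line, with Mcm10, Cdc6, Cdc45 and Tk1 furthest from it and Orc4, Orc5, Tyms and Gins4 among those close to it.

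The counts were repeated on further probe sets and with other scalings. Of 49 further probe sets of 34 members that passed the filter, 40 were lower and 2 higher with both, the latter being the Orc4 probe sets above, and 33 had an interaction term below 0 past the threshold with 0 above. In KO cells 14 were lower and 2 higher, in +/+ cells 12 and 1, and in Kd cells 0 and 0. The share lower in KO cells was below that of the brightest probe sets (34 of 50). Shares over all probe sets that passed the filter were not counted. Scaling moved the median of all genes with both from 0.16 to -0.02 after quantile normalization and -0.10 with centred arrays, and the median of the members from -1.35 to -1.57 and -1.62. The split of all genes with both became 4467 lower and 4310 higher by quantile normalization, and centring gave 5516 lower and 3990 higher. Members lower with both numbered 49 and higher 0 under either scaling.

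Array by array, the mean log2 distance of the 50 members from the control mean was -0.02, -0.08 and -0.13 on the Kd arrays, -0.19, -0.18 and -0.25 on the +/+ arrays and -1.57, -1.21 and -1.62 on the arrays with both. Replicate 2 of the cells with both gave the highest of their 3 values for 49 of 50 members, and for 52.5% of all genes. With centred arrays this was still so for 41 of 50 members, against 27.9% of all genes. Without this array 47 members were lower and 0 higher.

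**Figure D4:**
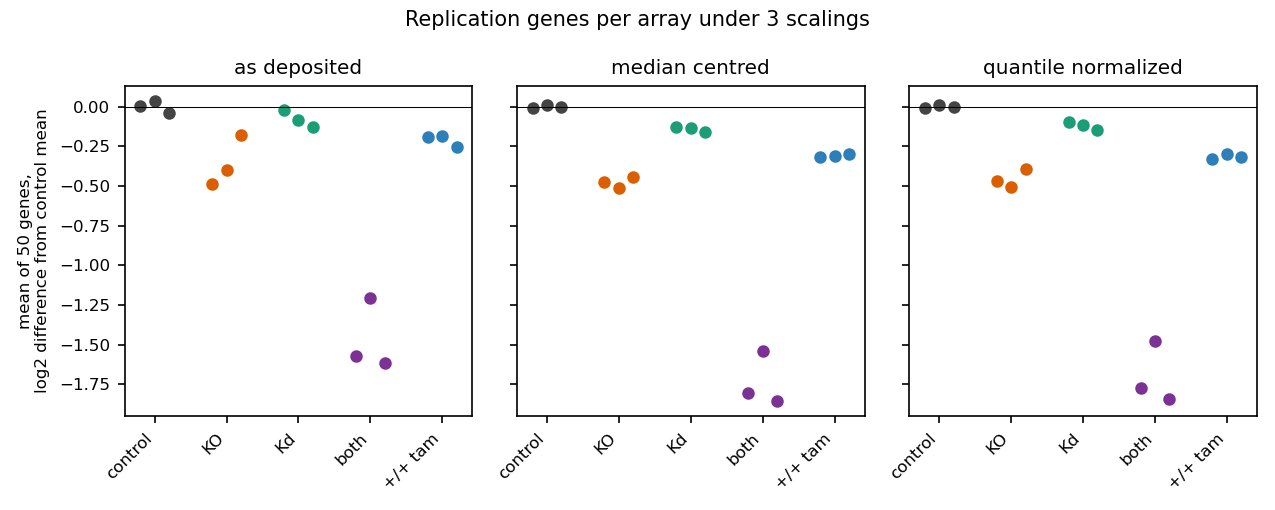
Mean over 50 replication genes of the log2 difference from the control mean (vertical axis) on each of 15 arrays, as deposited, with arrays centred on their medians, and after quantile normalization. The 3 arrays with both lie lowest in every panel, their replicate 2 (the middle point) above the other two, and the spread of the KO arrays is smaller in the 2 rescaled panels.

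Genes with related work were read from lists of their own. Of 36 further replication factors tested, 30 fell and 1 rose with both (median -1.10), led by Timeless (-2.76) and Clspn (-2.54), which protect stalled forks, and Wdhd1 (-2.67), which links helicase and polymerase alpha. The gene that rose was Pold4 (0.63), the smallest subunit of polymerase delta. Among all genes 19.3% were lower and 46.2% higher with both. In KO cells 17 fell and 1 rose (all genes 4.64% and 19.5%). Timeless was at -0.98 there, and the origin firing factors Ticrr and Recql4 at -0.84 and -0.68. In Kd cells 1 fell (Wdhd1, -0.45) and 1 rose (Donson, 0.29), where 3.02% and 7.5% of all genes did. The share that fell in Kd cells was thus near that of all genes. The +/+ cells had 7 lower and 2 higher (all genes 6.93% and 21.5%).

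Nucleotide metabolism outside the members was read from a list of 29 tested enzymes. With both 18 fell and 6 rose (median -0.39), where 19.3% of all genes were lower and 46.2% higher, with Shmt2, a mitochondrial enzyme of folate metabolism, at -1.58, Ppat, the first step of purine synthesis, at -1.13 and Prps2, which makes phosphoribosyl pyrophosphate, at 1.57. KO cells had 4 lower and 3 higher (all genes 4.64% and 19.5%), among them Ppat (-0.68), Shmt2 (-0.46) and Rrm2b (0.56), the reductase subunit induced by p53. Kd cells had 0 lower and 2 higher (Ctps, 0.34, and Samhd1, 0.27, with 3.02% and 7.5% of all genes) and +/+ cells 4 and 2 (all genes 6.93% and 21.5%).

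Regulators of the step from G1 into S phase numbered 33. With both 13 fell and 16 rose (median 0.15, all genes 0.16), and the share that rose was near the 46.2% of all genes, with the pocket protein gene Rbl1 at -3.04, the repressive E2F gene E2f7 at -2.67 and the inhibitor gene Cdkn1c (p57) at 4.14. Cdkn1a, which encodes the inhibitor p21, had mean intensities of 2811 ± 98.5 (control), 2646 ± 55.5 (Kd), 3298 ± 353 (+/+), 8308 ± 766 (KO) and 12006 ± 465 (both; SD, n = 3). KO and +/+ cells had 6 and 4 of the 33 lower and 8 and 8 higher, and Kd cells 2 and 2. The shares that rose were near those of all genes (19.5%, 21.5% and 7.5%). The shares that fell were above those of all genes, which were 19.3% with both, 4.64% in KO, 6.93% in +/+ and 3.02% in Kd cells. Genes of mitosis, which act after replication is complete, fell with both for 19 of 19 (median -2.33, more negative than the -1.35 of the members, a difference that was not tested), with Aurka at -2.91 and Plk1 at -2.87. In KO cells 7 of 19 fell past the threshold, against 4.64% of all genes, with Birc5 at -0.69. All 19 were below 0 there, with a median of -0.47 against -0.38 for the members and 0.08 for all genes. The difference from the members was not tested. In Kd and +/+ cells 0 fell past the threshold.

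The promoter words and the response with both were set side by side. Members with an E2F word had a median log2 difference of -1.66 (n = 15, from -2.65 to -0.28), and members with a promoter entry and no word one of -1.34 (n = 27, from -3.13 to 0.19). The ranges overlap almost wholly. Mcm5, Mcm6, Cdc6, Orc1 and Pola1, whose words are printed above, were at -2.33, -1.16, -2.65, -2.03 and -2.17, and Tk1 and Cdc45, without a word, at -3.13 and -2.85. Orc5, also without a word, was at -0.12, and Orc3, with a word 41 to 34 bases before its start, was at -0.28. Gins3 and Rfc3, also with a word in the 160 bases before the start, were at -0.80 and -1.06. Orc3, Gins3 and Rfc3, which are not printed, were thus less negative than the printed members with a word.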

How the data were processed

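Total RNA of 15 samples was hybridised to Affymetrix GeneChip arrays for mouse genes, per the labels' protocols. The deposited values are linear intensities for each probe set. Their summary method and scaling by the authors are not given in the sources used here. Of 45037 probe sets the annotation gave 34945 a single symbol, 932 several and 9160 none, and the latter kinds were left out; 0 symbols changed through Entrez IDs. Values became log2(intensity + 16), which makes differences of dim genes look smaller. Probe sets had to exceed the 40th percentile of an array on 3 or more arrays, and the brightest stood for its gene. limma 3.58.1 (R 4.3.3; lmFit, contrasts.fit, eBayes) modelled the 15 arrays together, 1 coefficient for each group. The two-sided p-values of 10 comparisons were adjusted by Benjamini-Hochberg over 13382 genes each, with a threshold of 0.05, and the procedure was tested on simulated data. The number of arrays limits the precision (median standard error 0.0867, interaction 0.123).

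The members, the 4 related lists, the 7 marker lists and the alternatives were chosen with earlier results of these data known. Values on every array are given for the 2 members of each role with the largest difference in KO cells against control, for Pcna, Mcm2 and Tk1, and for Cdc6, which was chosen after its values were seen. From related lists up to 3 genes per comparison with the largest change past the threshold were named, and Pold4 and Cdkn1a besides. Alternatives were other scalings, filters, probe set rules, pseudocounts, weights and groups in the model, a replicate block, and each array left out in turn.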

Additional observations from a re-analysis of the deposited data

Results flagged for a closer look

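By the interaction term the effect of deletion differed between Kd cells and control cells for 43 of the 50 replication genes tested. Each effect was more negative in Kd cells, and the deletion came with tamoxifen. On the log2 scale the terms of the genes given array by array were -2.22 for Cdc6, -2.13 for Cdc45, -1.15 for Gins1, -1.47 for Lig1, -1.02 for Mcm2, -1.44 for Orc1, -0.9 for Pcna, -1.06 for Pold1, -1.79 for Pole, -0.43 for Rfc2, -2.10 for Tk1 and -1 for Ung (limma). Gmnn, at -0.34, did not pass (adjusted p = 0.0537). Of the genes given here that passed, Rfc2 lost its call in some alternatives.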

How the results depend on the processing

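Counts are members lower unless said otherwise. KO against control (34 as reported) gave 11 with arrayWeights and 18 to 39 with each array left out; members higher were 1 after averaging probe sets and 0 to 1 with an array left out. Kd against control (0) gave 4 after quantile normalization, 8 with centred arrays, 2 after averaging probe sets, 1 without _x_at and _s_at probe sets, 5 with arrayWeights and 5 with only the groups compared in the model. Cells with both had 1 member higher than control after averaging probe sets, with arrayWeights and with only the groups compared. The +/+ cells against control (13) gave 31 after quantile normalization, 34 with centred arrays, 20 with arrayWeights, 27 with only the groups compared and 8 to 12 with an array left out; 2 were higher with arrayWeights and 1 with only the groups compared. KO against +/+ (10) gave 18 with centred arrays, 5 with a pseudocount of 1, 2 with arrayWeights and 4 to 18 with an array left out; 1 was higher after quantile normalization and with only the groups compared, and 0 to 1 with an array left out. KO against Kd (20) gave 35 after quantile normalization, 36 with centred arrays, 6 with arrayWeights and 9 to 29 with an array left out. Among all genes the numbers called lower shifted too. KO against control had 621 as reported and 203 with arrayWeights. Kd against control had 404, then 973, 1087, 406, 391 (of 13033), 888 and 614 in the order above. The +/+ cells against control had 927, then 2010, 1921, 1242 and 1146. KO against +/+ had 1517, then 2503, 1424 and 690, and KO against Kd had 1200, then 2276, 2233 and 542. With an array left out, all genes lower ranged from 393 to 934 for KO against control and from 724 to 823 for +/+ cells against control. The ranges were 975 to 2291 for KO against +/+ and 792 to 1627 for KO against Kd. The cause of these shifts was not tested. In every alternative the call held for 45 of 47 members with both against control, 44 of 45 against +/+, 47 of 47 against Kd, 43 of 46 against KO and 39 of 43 for the interaction, where Gins3, Orc3, Prim2 and Rfc2 lost it in some.

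Deviations of same-numbered arrays from their group means had correlations from -0.159 to 0.135 over 30 pairs of arrays. Arrays with different numbers were not compared, so this cannot decide whether the numbers pair samples. With the replicate block 33 members were lower in KO cells, 47 with both, 12 in +/+ cells, 8 for KO against +/+ and 43 by the interaction. Of all 13382 genes, 571, 2533, 893, 1398 and 2205 were lower in the same order. Dim probe sets such as those of Tyms leave little room to show a fall.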
